A study of Mus musculus with 2 samples.

Results

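A set of 10 genes of glutathione and peroxiredoxin chemistry was followed in mouse gut fibroblasts and crypts grown together. They are the glutathione transferases Gstm1, Gstm3, Gstp1 and Gsto1, the glutathione peroxidases Gpx1, Gpx2 and Gpx4, and the peroxiredoxins Prdx1, Prdx4 and Prdx6. They were chosen by name and make up 10 of the 18309 genes listed in either library. All 10 were detected in both libraries.

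Glutathione is a small thiol that cells use to neutralise peroxides and reactive chemicals. Glutathione transferases join it to electrophiles, glutathione peroxidases spend it to reduce peroxides, and peroxiredoxins reduce peroxides with thiols of their own that thioredoxin mostly restores. In the gut lining these enzymes meet food-borne chemicals, bile and oxidants, and several differ in amount between crypt and villus cells.

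Small intestine of C57BL6 mice, 10 weeks of age, gave both cell kinds, which shared a culture in Organoid Growth Media. The Ptger4-ON library was made from 1 pool of 6 cultures given DMSO vehicle, which grew as spheroids. The Ptger4-OFF library was made from 1 pool of 6 cultures given ONO-AE3-208, an antagonist of the prostaglandin E2 receptor EP4 (gene Ptger4), at 10 µM on alternate days, which grew as budding organoids. With 1 library per condition there is no replicate error and no test between conditions, and the effects of the inhibitor, the pool and the library cannot be told apart.

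Expression was read with Drop-seq, which captures single cells in droplets and reads mRNA near the 3' end. The Ptger4-ON library (called ON here) held 7408303 unique molecular identifiers (UMIs, each counting 1 captured mRNA) in 908 barcodes, and the Ptger4-OFF library (OFF) held 9490205 in 1599 barcodes. A cell was called epithelial where its UMIs of Epcam, Krt8 and Krt18 exceeded those of Col1a1, Col1a2 and Col3a1, and a fibroblast in the opposite case. This gave 585 (ON) and 1199 (OFF) epithelial cells with median depths of 4649 and 4161 UMIs, and 276 and 360 fibroblasts with medians of 4879.5 and 4473.5. In ON, 16 barcodes over 50000 UMIs, all epithelial, held 22.9% of epithelial UMIs, against 6 barcodes and 4.97% in OFF. The libraries shared 1 barcode.

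The class labels held against markers that did not define them. The summed level of 5 other epithelial markers in fibroblasts was 1.39% (ON) and 2.38% (OFF) of their level in epithelial cells, and 5 other fibroblast markers in epithelial cells stood at 0.428% and 0.410% of their level in fibroblasts. Endothelial markers had 0 to 3 UMIs in any class of either library, and leukocyte markers 21 to 41. The summed level of 10 fetal-like markers, such as Clu and Ly6a, in epithelial cells was 4350.4 counts in each 1000000 UMIs (CPM) in ON and 1481 in OFF, and that of 12 enterocyte markers was 2016 and 5262. A level summed over a class cannot tell fewer cells of a type from less RNA per cell.

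Levels below are CPM within a class or cluster, and brackets hold 95% intervals of counting error only: exact Poisson for a level, exact conditional binomial for a ratio and exact Clopper-Pearson for a share of cells. Intervals do not cover variation between cells, cultures or mice, and read 1 barcode with many UMIs as if its UMIs were independent. A gene was counted as higher or lower in OFF when its ratio passed 1.5-fold with at least 20 UMIs over both libraries.

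The results turn on Gstm1 and Gstm3, genes of the mu class on chromosome 3 (GRCm38, minus strand, chr3:108012255-108017973 and chr3:107963696-107969283), which lie 42971 bases apart. Their upstream sequences are shown because both were higher in OFF epithelial cells and followed the same order over clusters there, although their levels parted elsewhere, as described below. The capitals mark the longest run of bases that both upstream windows share, which is 10 bases long. RefSeq gives Gstm1 a pair of starts. Over the 250 bases before each start, the identity of a global alignment with Gstm3 was 46.8% for the start shown and 57.9% for the other, whose window runs into the annotated gene and is not printed. RefSeq (GRCm38.p6) gives these upstream bases, printed 5′ to 3′ on the minus strand and ending where the annotated gene begins, at chr3:107969284-107969424 for Gstm3 and chr3:108017974-108018223 for Gstm1.
Gstm3: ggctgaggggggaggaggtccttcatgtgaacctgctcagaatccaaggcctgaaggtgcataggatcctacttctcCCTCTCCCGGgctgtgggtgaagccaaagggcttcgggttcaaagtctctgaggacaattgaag
Gstm1: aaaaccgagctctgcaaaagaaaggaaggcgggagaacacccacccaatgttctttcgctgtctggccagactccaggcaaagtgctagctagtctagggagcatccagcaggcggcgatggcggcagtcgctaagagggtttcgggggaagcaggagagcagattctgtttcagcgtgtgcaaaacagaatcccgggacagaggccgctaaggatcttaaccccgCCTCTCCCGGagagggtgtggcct

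RefSeq held upstream sequences for 9 of the 10 genes. The core of the antioxidant response element, the site bound by the stress regulator NRF2, is TGACNNNGC and was searched on both strands of the 250 bases before each start. It was present in 10.2% of 32851 promoters of all genes and in 1 of the 13 promoters of the 9 matched genes, that of Prdx1. CAAAGTCCA, a motif of the enterocyte regulator HNF4, was in 0.384% of all promoters and in those of none of the 9 genes. A match describes letters and not a bound site. The Prdx1 sequence lies at chr4:116685349-116685543 (GRCm38.p6) and is printed on the plus strand. The capitals mark the match, which spells the core on the minus strand and so appears here as the reverse complement. The first capital lies 133 bases before the RefSeq start.
Prdx1: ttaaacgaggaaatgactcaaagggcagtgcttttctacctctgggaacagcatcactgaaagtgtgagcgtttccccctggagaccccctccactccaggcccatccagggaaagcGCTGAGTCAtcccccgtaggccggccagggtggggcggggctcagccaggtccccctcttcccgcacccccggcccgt

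The other genes lie apart from this pair in the GENCODE vM21 annotation (GRCm38): Gstp1 at chr19:4035407-4037985, Gsto1 at chr19:47854970-47864790, Gpx1 at chr9:108338903-108340343, Gpx2 at chr12:76792333-76795554 and Gpx4 at chr10:80047166-80056439. Prdx1 is at chr4:116685544-116700822, Prdx4 at chrX:155323918-155340754 and Prdx6 at chr1:161240112-161251219. No exon of the 10 overlaps an exon of another gene. Because Drop-seq reads the 3' end, the last 500 bases of each gene's longest coding transcript were compared with all other annotated transcripts, in words of 50 bases. For Gpx4, 88.9% of these words also occurred in other genes, chiefly the pseudogene Gpx4-ps2, and for Gstp1 75.2% occurred in Gstp2 and Gstp-ps. For Gpx2 the share was 20.2%, from Gpx2-ps1. Gstm1 and Gstm3 shared 0.887% of their words with each other, and the other 5 genes shared none. How reads that match several genes were counted is not given in the sources used here, so the levels of Gpx4 and Gstp1 are uncertain.

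In epithelial cells, 2 of the 10 genes were higher in OFF, Gstm1 and Gstm3, where 7.2% of 11618 measured genes passed the same fold. Of the 10, 1 gene, Gpx4, was lower, where 10.6% of all genes were. The median log2(OFF/ON) of the 10 was 0.10, against -0.04 over all genes. With at least 100 CPM in either library asked of a gene, Gstm1 and Gstm3 were the higher ones, where 4.63% of all genes were. Both genes reached 100 CPM only in OFF, the library where they were high, so this count is no separate support. In fibroblasts, Gstm3 had too few UMIs to be counted, and of the other 9 genes 1 was higher in OFF, Prdx4, where 6.5% of 9759 genes were. None of the 9 was lower, where 7.51% of all genes were, and the median of the 9 was -0.05 against 0.02 over all genes. With so few genes these counts say little of the set as a whole, and the members are described one by one.

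**Figure D1:**
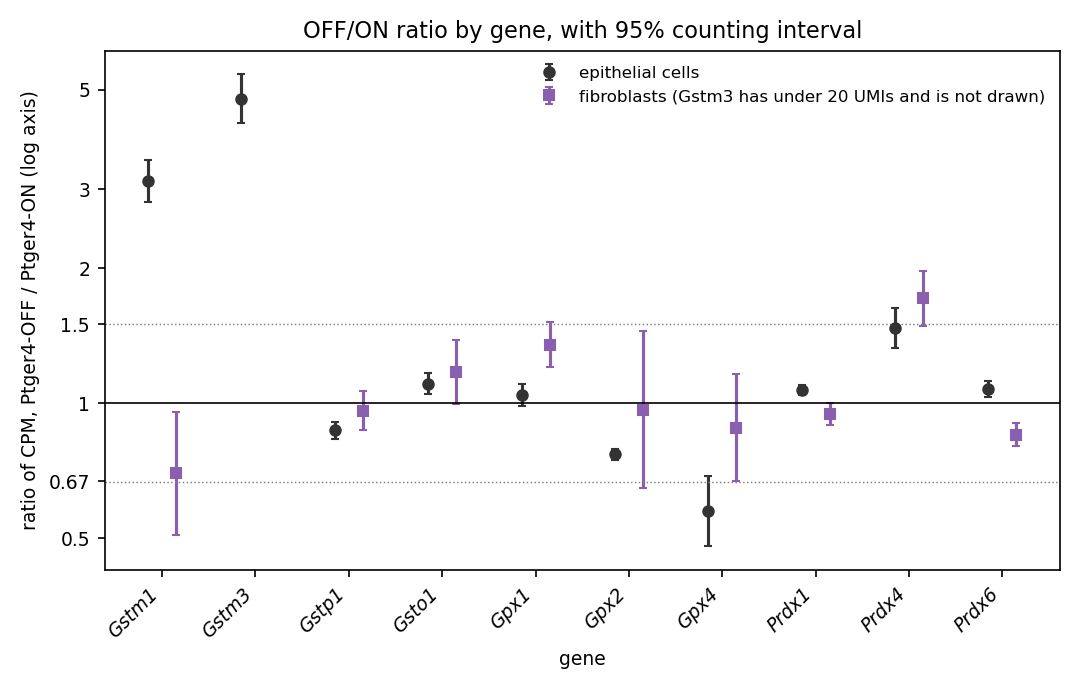
Ratio of the level (CPM) in Ptger4-OFF to that in Ptger4-ON for each gene (log axis) in epithelial cells and fibroblasts, with 95% counting intervals; dotted lines mark 1.5-fold. Gstm1 and Gstm3 lie highest in epithelial cells, at 3.13 and 4.78, and Prdx4 highest in fibroblasts, at 1.72.

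Gstm1 and Gstm3, which conjugate glutathione to electrophiles, showed the largest ratios of the 10 in epithelial cells. Gstm1 stood at 73.9 CPM [66.9 to 81.4] in ON and 232 [221 to 243] in OFF, from 409 and 1761 UMIs, a 3.13-fold difference [2.81 to 3.497]. Gstm3 stood at 53.5 CPM [47.6 to 59.9] and 255 [244 to 267], from 296 and 1943 UMIs, or 4.78-fold [4.22 to 5.42]. For both genes the OFF level lay far above the ON interval. The 10 barcodes richest in each gene held 26.2% (ON) and 36.4% (OFF) of its UMIs for Gstm1 and 58.8% and 44.2% for Gstm3. For Prdx6 in the same class the shares were 26.3% and 12.7%, and for Gsto1 24.0% and 13.6%. Few cells thus carried much of the Gstm3 signal in both libraries and of the Gstm1 signal in OFF. In ON, 1 barcode held 28.0% of the Gstm3 UMIs. Without the richest barcode of each library the log2 ratio was 1.53 for Gstm1 and 2.57 for Gstm3, against 1.65 and 2.25 with it.

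To see where the epithelial signal lay, epithelial cells were clustered on genes that left out the 10 and the related lists. The 8 clusters are called by a leading gene. The Ly6a cluster was led by Rhox5, Ly6c1 and Ly6a and held 111 (ON) and 36 (OFF) cells, and the Clu cluster, led by Prl2c2, Clu and Ly6d, held 100 and 54. The Ndrg1 cluster, with P4ha2 and Ndrg1 among its leading genes, held 51 and 187. The Nusap1 cluster, cycling-like and led by Nusap1, Hmmr and Aspm, held 124 and 326, and the Ung cluster, led by Nr2e3, Ung and Dtl, held 110 and 434. The Defa17 cluster, with Paneth and goblet markers (Defa17, Spink4, Defa24), held 71 and 70, and the enterocyte-like Apoa4 cluster (Apoa4, Apoa1, Fabp1) held 17 and 75. The enteroendocrine-like Chgb cluster (Chgb, Gip, Cck) had 1 and 17 cells and is left out of the counts over clusters.

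The Apoa4 cluster held 47.1% of all epithelial Gstm1 UMIs in OFF and 4.89% in ON, and 66.0% and 48.6% of the Gstm3 UMIs. It held 7.93% and 3.32% of all epithelial UMIs. Within it Gstm3 stood at 783 CPM [660.1 to 922] in ON and 2126 [2011 to 2246] in OFF, 27.5-fold [21.8 to 34.8] and 22.6-fold [20.5 to 24.8] above the rest of the epithelium. Gstm1 stood at 109 CPM [66.4 to 168] in ON, 1.495-fold the rest [0.903 to 2.34], and at 1374 [1282 to 1471] in OFF, 10.3-fold the rest [9.39 to 11.3]. Gstm3 was thus high in this cluster in both libraries, and Gstm1 in OFF.

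**Figure D2:**
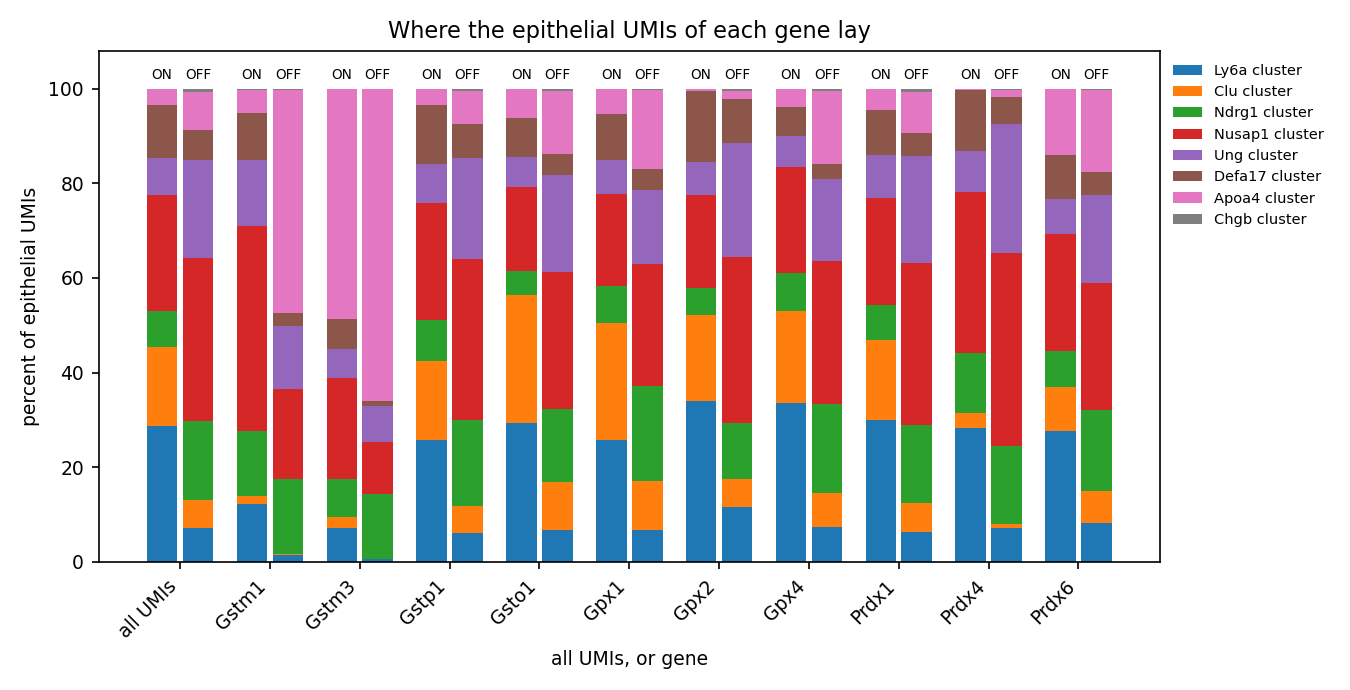
Share of epithelial UMIs (percent) that lay in each of the 8 clusters, for all genes together and for each described gene, in Ptger4-ON (left bar) and Ptger4-OFF (right bar). The Apoa4 cluster held 66.0% of Gstm3 and 47.1% of Gstm1 UMIs in OFF, against 7.93% of all UMIs.

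The cluster is small, and its cells varied. The Gstm1 level per cell in the Apoa4 cluster ran from 0 to 1055 CPM with a median of 0 in ON, and from 0 to 10813 with a median of 211 in OFF. At least 1 Gstm1 UMI was present in 5 of 17 ON and 44 of 75 OFF cells. For Gstm3 the range was 0 to 4078 CPM with a median of 0 in ON, and 0 to 9762 with a median of 1016 in OFF, with a UMI in 7 of 17 and 52 of 75 cells. For both genes the ON range lay within the OFF range, and its top lay above the OFF median. A single barcode had 92081 of the ON cluster's 183967 UMIs and so weighs heavily in every ON level of this cluster. It held 57.6% of the cluster's 144 Gstm3 UMIs, at 901 CPM. Its shares of the Gstp1 (60%), Gsto1 (58.3%) and Prdx1 (61.1%) UMIs there were similar. Another barcode held 45% of the ON cluster's 20 Gstm1 UMIs.

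Other genes of the cluster also differed between libraries. The summed enterocyte markers stood at 43383 CPM in ON and 51931 in OFF, 1.20-fold, with Apoa4 at 1000.2 and 5702 and Sis, a brush border disaccharidase, at 6115 and 2499. The 10 goblet markers summed to 11035 CPM in the ON cluster and 1263 in the OFF cluster. The part of these differences in the Gstm1 and Gstm3 ratios was not tested.

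**Figure D3:**
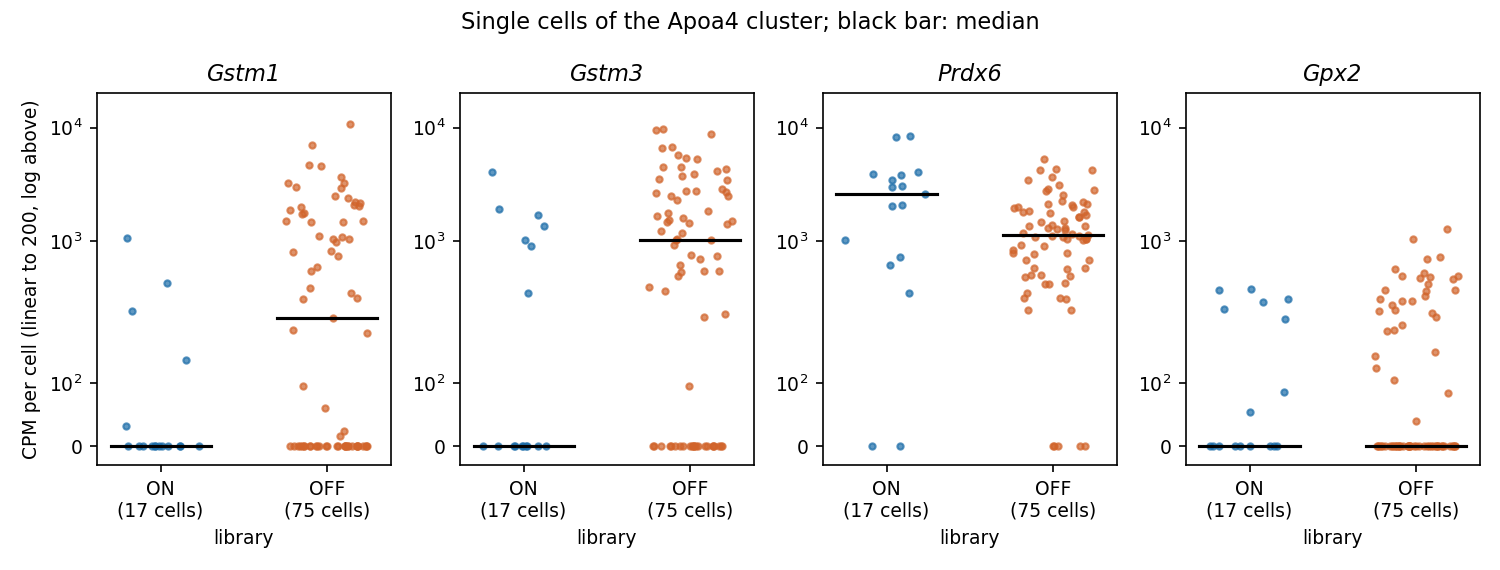
Level of 4 genes (CPM per cell, linear to 200 and log above) in single cells of the Apoa4 cluster, 17 from Ptger4-ON and 75 from Ptger4-OFF, each point a cell and the bar a median. The Gstm3 median is 0 in ON and 1016 in OFF, and the Prdx6 median is 2592 in ON and 1139 in OFF.

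Outside the Apoa4 cluster the epithelial ratio was 1.83 [1.62 to 2.07] for Gstm1 and 3.32 [2.78 to 3.98] for Gstm3. The Ndrg1 cluster, whose leading genes include the prolyl hydroxylase P4ha2, showed both. There Gstm3 was 57.4 CPM [36.8 to 85.5] in ON and 211 [186.5 to 238] in OFF, 3.67-fold [2.42 to 5.84], and Gstm1 was 134 [101.2 to 174] and 219 [194 to 246], 1.63-fold [1.22 to 2.22]. The summed enterocyte markers of the Ndrg1 cluster also differed, at 1039 CPM in ON and 2377 in OFF. Their part in these ratios was not tested. Gstm3 was also higher in the Nusap1 cluster, 46.5 against 81.5 CPM or 1.75-fold [1.32 to 2.36], and in the Ung cluster, 41.5 against 93.3 CPM or 2.25-fold [1.37 to 3.90]. In the same clusters Gstm1 had ratios of 0.98 [0.82 to 1.18] and 1.13 [0.84 to 1.53], with intervals that held 1. In the Clu cluster both were scarce, with 7 Gstm1 UMIs in each library and 7 and 3 Gstm3 UMIs. The mean over the clusters with at least 50 cells in both libraries, each weighted equally and without the Apoa4 and Ly6a clusters, gave a log2 ratio of 0.38 for Gstm1 and 1.23 for Gstm3, against 1.65 and 2.25 over all epithelial cells.

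**Figure D4:**
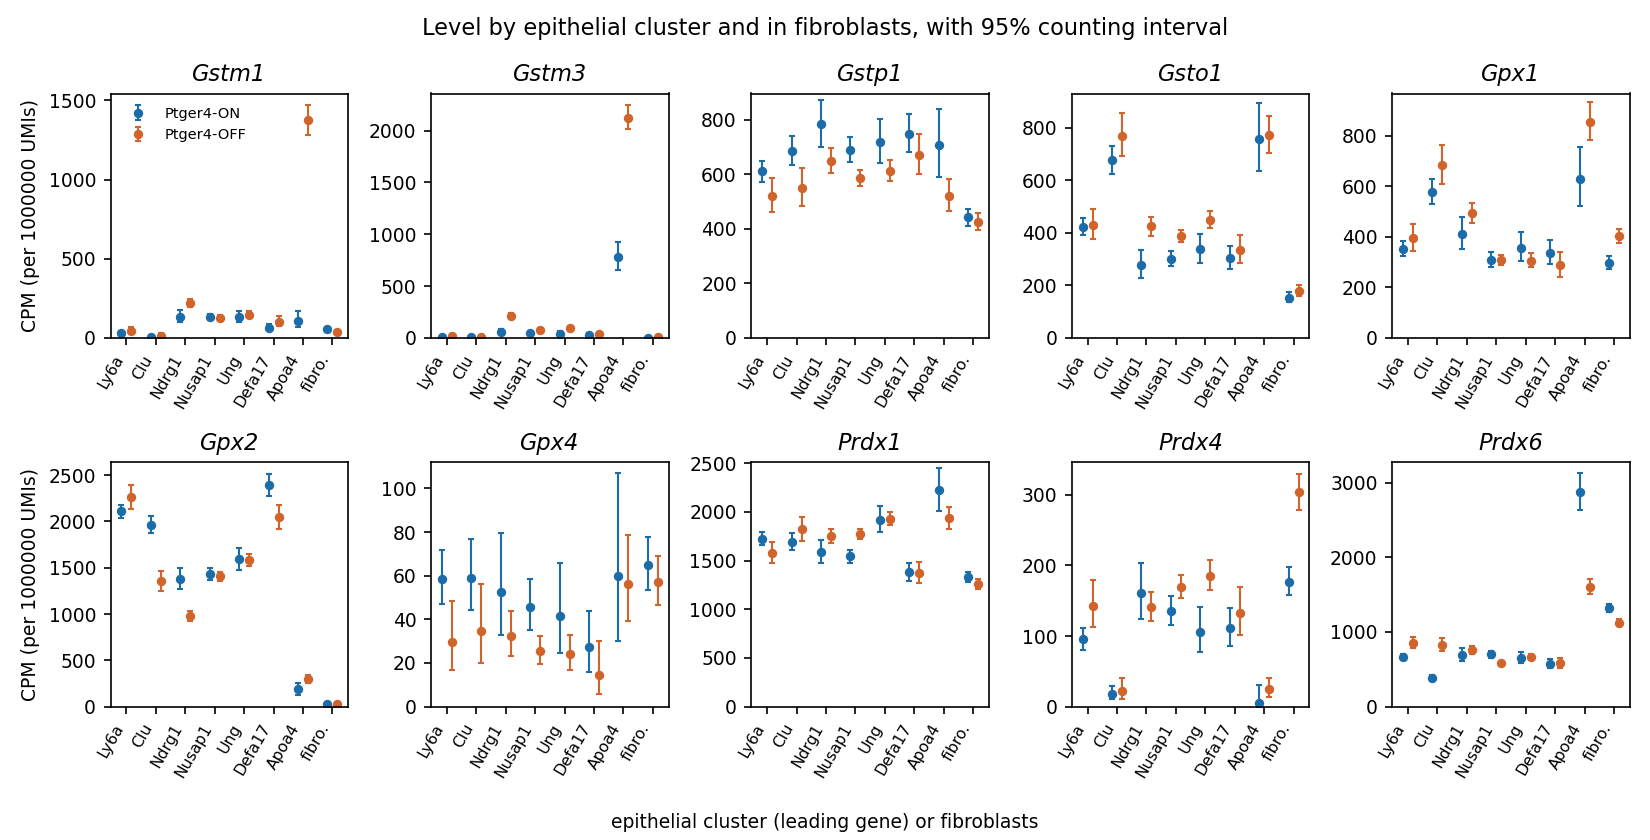
Level (CPM) of each gene in 7 epithelial clusters and in fibroblasts, in Ptger4-ON and Ptger4-OFF, with 95% counting intervals. The Apoa4 cluster is highest for Gstm3 and Prdx6 in both libraries and low for Gpx2 and Prdx4; Gpx4 and Gstp1 lie lower in OFF in all 7 clusters.

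In OFF the order of levels over the 7 clusters was the same for both genes, and in ON it was not. In ON the Apoa4 cluster (783 CPM) led for Gstm3, with the Ndrg1 (57.4), Nusap1 (46.5) and Ung (41.5) clusters far below. For Gstm1 in ON the Ndrg1 (134), Ung (131) and Nusap1 (131) clusters came before the Apoa4 cluster (109), with overlapping intervals among these 4. For Gstm1 in OFF the Apoa4 cluster (1374 CPM) led, followed by the Ndrg1 (219), Ung (148), Nusap1 (128), Defa17 (103), Ly6a (44.6) and Clu (15.2) clusters. Intervals overlapped among the Ung, Nusap1 and Defa17 clusters and between the Ly6a and Clu clusters. For Gstm3 in OFF the levels in this order were 2126, 211, 93.3, 81.5, 37.8, 18.6 and 6.51 CPM, with overlapping intervals between the Ung and Nusap1, the Defa17 and Ly6a, and the Ly6a and Clu clusters. Over the 14 groups of clusters and fibroblast cells by library with at least 50 cells, log2(CPM + 10) of Gstm1 and Gstm3 had a Pearson r of 0.92, the highest of the 45 pairs among the 10 genes. They include the Apoa4 cluster of OFF and leave out that of ON, with 17 cells, where the genes parted. These groups share libraries and depth, and r is given as a description.

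Detection per cell pointed the same way at matched depth. After each cell was thinned to 1000 UMIs, 6.20% [4.31 to 8.60] of 532 ON and 11.7% of 1152 OFF epithelial cells held a Gstm1 UMI, and 3.01% [1.73 to 4.84] and 11.7% held a Gstm3 UMI. Without thinning the Gstm3 shares were 16.1% and 30.3%. Among thinned OFF cells of the Apoa4 cluster, 23 of 71 held both genes, 3 Gstm1 alone and 18 Gstm3 alone. In the other OFF epithelial cells, 16 of 1081 held both, 93 Gstm1 alone and 78 Gstm3 alone. In fibroblasts the thinned Gstm3 counts were 0 of 254 and 4 of 349 cells.

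Fibroblasts carried Gstm1 at 56.2 CPM [45.6 to 68.4] in ON and 39.2 [30.7 to 49.4] in OFF, a ratio of 0.70 [0.51 to 0.96]. The interval of this ratio lay below 1, while that of the epithelial ratio lay above 1. Of 98 ON UMIs, 11 were in 1 barcode. The level was lower in OFF in 5 of 6 fibroblast clusters, with an interval below 1 in 1. Detection at matched depth did not show the lower OFF level. Thinned to 1000 UMIs, 2.76% of 254 ON and 4.30% of 349 OFF fibroblasts held a Gstm1 UMI, with overlapping intervals. Gstm3 had 1 and 14 UMIs in fibroblasts, or 1.07% and 2.98% of its epithelial level, where the 5 epithelial markers reached 0.821% to 1.88% in ON and 1.95% to 2.76% in OFF. The OFF value lay just above that range, and its counting interval, from 0.0163 to 0.0502 as a fraction of the epithelial level, held the range.

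Gstp1 is the pi-class transferase, and Gsto1 is an omega-class enzyme that also reduces mixed disulfides. Gstp1 stood at 682 CPM [661 to 705] in ON and 594 [577 to 612] in OFF epithelial cells, a ratio of 0.87 [0.83 to 0.91]. It was lower in OFF in 7 of 7 clusters, with an interval below 1 in 6, and its level varied little over them, 1.28-fold in ON and 1.29-fold in OFF between the lowest and highest cluster. Gsto1 stood at 415 CPM [398 to 432] and 459 [444 to 475], a ratio of 1.11 [1.05 to 1.17], and was higher in OFF in 7 of 7 clusters, with an interval above 1 in 3. Neither gene passed 1.5-fold over the class. Within the Ndrg1 cluster Gsto1 did, at 278 CPM [229 to 333] against 424 [389 to 462], or 1.53-fold [1.249 to 1.89]. Gsto1 was highest in the Apoa4 cluster (756 and 772 CPM) and the Clu cluster (676.5 and 770.0), whose intervals overlapped in both libraries.

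In fibroblasts Gstp1 had 442 CPM [411 to 474] in ON and 426 [396 to 457] in OFF, and Gsto1 had 154 [136 to 173] and 180.2 [161 to 201]. The intervals of both libraries overlapped for each gene. The Gsto1 level in epithelial cells was 2.70-fold [2.38 to 3.08] that in fibroblasts in ON and 2.55-fold [2.28 to 2.86] in OFF.

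Among the glutathione peroxidases, all 3 of which carry selenocysteine, the gut-epithelial form Gpx2 was lower in OFF, short of 1.5-fold. It stood at 1789.9 CPM [1755 to 1826] in ON and 1378 [1352 to 1404] in OFF, a ratio of 0.77 [0.75 to 0.79]. The ratio had an interval below 1 in 3 of 7 clusters and above 1 in 2, the Ly6a cluster (1.07 [1.002 to 1.14]) and the Apoa4 cluster (1.605 [1.11 to 2.39]). It was lowest in the Clu and Ndrg1 clusters: in the Clu cluster Gpx2 was 1962 CPM [1873 to 2055] against 1356 [1251 to 1466], and in the Ndrg1 cluster 1383.5 [1273 to 1501] against 980.2 [926 to 1036]. In the Nusap1 and Ung clusters the ratios were 0.98 [0.93 to 1.04] and 0.99 [0.91 to 1.08]. Gpx2 was lowest in the Apoa4 cluster, 185 CPM [128 to 258] in ON and 297 [255 to 343] in OFF, where the rest of the epithelium had 9.98-fold [7.14 to 14.4] and 4.96-fold [4.28 to 5.78] more. In this cluster Gpx2 and Gstm3 were at opposite ends of their ranges. The fibroblast level of Gpx2 was 29.8 and 28.8 CPM, or 1.67% and 2.09% of the epithelial level. These shares lay within the range of the 5 epithelial markers, and their source was not tested.

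Gpx1, the widely expressed cytosolic form, stood at 391 CPM [375 to 408] in ON and 408 [394 to 423] in OFF epithelial cells, a ratio of 1.04 [0.99 to 1.10]. Its highest clusters were the Apoa4 cluster, 631 CPM [521 to 756] and 855 [783 to 932], and the Clu cluster, 578 [529 to 629] and 683 [609.9 to 763]. In fibroblasts it was 297 CPM [272 to 324] in ON and 402 [374 to 432] in OFF, 1.35-fold [1.21 to 1.52], and higher in OFF in 6 of 6 fibroblast clusters with an interval above 1 in 3.

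Gpx4, which reduces lipid hydroperoxides in membranes and holds back the iron-dependent cell death called ferroptosis, was the gene of the 10 counted as lower in OFF. It stood at 50.1 CPM [44.3 to 56.3] in ON and 28.8 [25.1 to 32.9] in OFF epithelial cells, from 277 and 219 UMIs, a ratio of 0.58 [0.48 to 0.69]. It was lower in 7 of 7 clusters, although the interval lay below 1 in only 2, the Ly6a cluster (58.4 against 29.7 CPM) and the Nusap1 cluster (45.7 against 25.3). Thinned to 1000 UMIs, 3.57% [2.16 to 5.52] of 532 ON and 2.52% [1.69 to 3.60] of 1152 OFF epithelial cells held a Gpx4 UMI. The intervals of these shares overlapped. Fibroblasts held 64.8 CPM [53.4 to 77.9] and 57.2 [46.7 to 69.2], a ratio of 0.88 [0.67 to 1.16]. The part of the 3' sequence shared with other genes in this difference was not tested. Among genes with at least 100 CPM in either library, 4.67% were lower in OFF past 1.5-fold, and Gpx4 did not reach that level.

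The peroxiredoxin Prdx4, which works in the endoplasmic reticulum, was the gene of the 9 counted as higher in OFF fibroblasts. It stood at 177 CPM [158 to 198] in ON and 304 [279 to 330.0] in OFF, from 309 and 558 UMIs, a 1.72-fold difference [1.49 to 1.98]. It was higher in 6 of 6 fibroblast clusters, with an interval above 1 in 5. Of the genes with at least 100 CPM in either library, 0.965% were higher in OFF fibroblasts past 1.5-fold, and 2.03% lower. By cluster, Prdx4 was 150.02 and 284 CPM in the cells led by Angptl7, Cyp1b1 and Ctla2a, 109 and 236 in those led by Mmp9, Spp1 and Mgp, and 149.7 and 314 in those led by Pgf, Ankrd1 and Lmod1. In the cells led by Pla2g7, Ccl5 and Rgs2 it was 199.9 and 333 CPM. In cycling fibroblasts, led by Hmmr, Prc1 and Cenpe, the levels were 351 [274 to 442] and 408 [319 to 514], a ratio of 1.16 [0.83 to 1.64]. The share of fibroblasts with a Prdx4 UMI, thinned to 1000 UMIs, was 14.96% [10.8 to 19.9] of 254 cells in ON and 26.9% [22.4 to 31.9] of 349 in OFF. The remaining cluster had low depth, with 9 and 32 Prdx4 UMIs.

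In epithelial cells Prdx4 stood at 96.9 CPM [88.8 to 105] in ON and 143 [134 to 151] in OFF, a ratio of 1.47 [1.33 to 1.63] that just missed 1.5-fold. On the log2 scale it was 0.56, and it passed 1.5-fold with TMM factors (0.61), median-of-ratios factors (0.60) and without the Apoa4 cluster (0.61). The Ung cluster passed it, at 106.07 CPM [77.7 to 141] against 185 [165 to 208], or 1.75-fold [1.28 to 2.44]. Prdx4 was scarce in the Apoa4 cluster, with 1 and 15 UMIs, and in the Clu cluster, with 17 and 10. Fibroblasts had 1.83-fold [1.58 to 2.11] its epithelial level in ON and 2.13-fold [1.92 to 2.36] in OFF. Over the 14 groups, Prdx4 had its lowest correlation with Gsto1, at a Pearson r of -0.84.

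Prdx1, a cytosolic enzyme, differed little between the libraries in either class. It stood at 1657 CPM [1624 to 1692] in ON and 1777 [1747 to 1807] in OFF epithelial cells, a ratio of 1.07 [1.04 to 1.10], and over clusters the highest was 1.61-fold (ON) and 1.41-fold (OFF) the lowest. In fibroblasts it was 1330.2 [1277 to 1386] and 1259 [1208 to 1311], a ratio of 0.95 [0.89 to 1.00]. The fibroblast level was 0.80 [0.77 to 0.84] of the epithelial level in ON and 0.71 [0.68 to 0.74] in OFF.

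Prdx6, which also acts on phospholipids, stood at 689 CPM [667 to 711] in ON and 740.3 [721 to 760] in OFF epithelial cells, a ratio of 1.07 [1.03 to 1.12]. Opposite differences lay within this near-even total. In the Clu cluster it was 382 CPM [343 to 424] in ON and 829 [748 to 916] in OFF, 2.17-fold higher [1.87 to 2.52], and in the Nusap1 cluster 699 [655 to 745] and 581 [552 to 611], a ratio of 0.83 [0.77 to 0.90]. The Clu cluster was not alike in both libraries. Its summed enterocyte markers stood at 259 CPM in ON and 2345 in OFF, and its Paneth markers at 761 and 2139. Its fetal-like markers were even, at 14816 and 14821. The part of these differences in the Prdx6 ratio was not tested. Prdx6 was highest in the Apoa4 cluster, at 2881 CPM [2641 to 3137] in ON and 1604 [1505 to 1709] in OFF, a ratio of 0.56 [0.50 to 0.62]. There the barcode with 92081 of the ON cluster's 183967 UMIs held 60.4% of the 530 Prdx6 UMIs. Without it the ON level was 2285 CPM. In fibroblasts Prdx6 was 1322 CPM [1269 to 1377] and 1125 [1077 to 1175], a ratio of 0.85 [0.80 to 0.90], and lower in OFF in 6 of 6 clusters with an interval below 1 in 1.

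Over the 5 epithelial clusters with at least 50 cells in both libraries, 48 pairs of a gene and a cluster had at least 20 UMIs. In OFF, 8 pairs were higher, where 10.4% of 40579 such pairs of all genes were, and 5 were lower, where 11.6% were. The 8 were Gstm3 in the Ndrg1, Nusap1 and Ung clusters, Gstm1 in the Ndrg1 and Defa17 clusters, Gsto1 in the Ndrg1 cluster, Prdx4 in the Ung cluster and Prdx6 in the Clu cluster. The 5 lower pairs were Gpx4 in each of the 5 clusters. Of all genes, 12.4% were higher in the Ndrg1, 6.63% in the Nusap1, 10.8% in the Ung, 11.7% in the Defa17 and 11.4% in the Clu cluster. The shares lower were 13.3%, 6.89%, 9.89%, 10.5% and 18.7% in the same order.

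Compared with the epithelium of the same library, fibroblasts had more Prdx4 and Prdx6 in ON past 1.5-fold (24.3% of all genes), and less Gstm3, Gstp1, Gsto1 and Gpx2 (37.6% of all genes). In OFF they had more Gpx4, Prdx4 and Prdx6 (25.1%), and less Gstm1, Gstm3, Gsto1 and Gpx2 (37.3%). Prdx6 in fibroblasts was 1.92-fold [1.82 to 2.02] the epithelial level in ON and 1.52-fold [1.44 to 1.599] in OFF. Gstm1 differed most between the libraries in this contrast: the epithelial level was 1.32-fold [1.05 to 1.66] that of fibroblasts in ON and 5.91-fold [4.67 to 7.59] in OFF.

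Related genes were read from 9 lists. Of 19 other glutathione transferases with at least 20 UMIs in epithelial cells, 8 were higher in OFF and 1 lower, where 7.2% and 10.6% of all genes were, with a median log2 ratio of 0.40 against -0.04 over all genes. Other mu-class genes were among the higher ones: Gstm6 stood at 3.98 and 15.3 CPM, 3.84-fold [2.42 to 6.36], and Gstm2 at 6.69 and 13.7, 2.05-fold [1.39 to 3.06]. The theta-class Gstt1 had 83 and 249 UMIs, a 2.18-fold difference in level [1.70 to 2.83]. Also past 1.5-fold were Gstm4 (6.69 and 12.5 CPM) and the microsomal Mgst1 (379.5 and 705 CPM), named after their values were seen. Gstm5 was near even, at 74.3 and 78.1 CPM. In fibroblasts 4 of 14 such genes were higher and none lower, where 6.5% and 7.51% of all genes were. The 4 were Mgst2, at 32.1 and 50.6 CPM, and Mgst3, Gsta4 and Gstt3, named after their values were seen. The ratios of Gsta4 (7 and 18 UMIs, interval 0.97 to 6.92) and Gstt3 (15 and 25 UMIs, interval 0.80 to 3.23) had intervals that held 1. Mgst1, at 254 and 328 CPM, and Gstm5, at 90.6 and 81.6, did not pass 1.5-fold there.

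Of 18 genes of glutathione synthesis and turnover, 2 were higher and 3 lower in OFF epithelial cells, where 7.2% and 10.6% of all genes were. The catalytic subunit of the rate-limiting synthetic enzyme, Gclc, was 152 CPM in ON and 67.1 in OFF, a ratio of 0.44 [0.40 to 0.49]. Cth, which makes cysteine, was 55.3 and 147 CPM, 2.66-fold [2.34 to 3.03], and Ggt1, which breaks down glutathione outside the cell, was 4.52 and 13.3 CPM, 2.94-fold [1.88 to 4.76]. In fibroblasts 1 of 15 was higher, Cth at 103 and 163 CPM, and 1 lower, beside 6.5% and 7.51% of all genes. The lower one, Oplah with 12 and 8 UMIs, was named after its values were seen. Its ratio, 0.63 [0.22 to 1.68], had an interval that held 1.

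Of 21 NRF2 regulators and targets, 4 were higher and 2 lower in OFF epithelial cells, beside 7.2% and 10.6% of all genes. The export pump Abcc2 was 60.2 and 108 CPM, 1.79-fold [1.57 to 2.04], the carbonyl reductase Cbr3 49.7 and 80.6, 1.62-fold [1.40 to 1.88], and the pump Abcc4 22.2 and 9.99, a ratio of 0.45 [0.33 to 0.60]. In fibroblasts 3 of 20 were higher and 1 lower, beside 6.5% and 7.51% of all genes. The lower one was the heme oxygenase Hmox1 at 486 and 312 CPM, a ratio of 0.64 [0.58 to 0.71]. The 3 higher ones were Bach1, Akr1b3 and Abcc4, the last 2 named after their values were seen. The ratios of Akr1b3 (31 and 50 UMIs, interval 0.96 to 2.48) and Abcc4 (10 and 17 UMIs, interval 0.70 to 3.95) had intervals that held 1.

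Of 8 genes of lipid peroxide and iron handling, 5 were higher and none lower in OFF epithelial cells, beside 7.2% and 10.6% of all genes. The 5 were Slc11a2, Lpcat3, Slc40a1, Ncoa4 and Steap3, of which Slc40a1, Ncoa4 and Steap3 were named after their values were seen. The ratios of Ncoa4 (26 and 55 UMIs, 1.54 [0.95 to 2.56]) and Steap3 (14 and 32 UMIs, 1.66 [0.86 to 3.37]) had intervals that held 1. Slc11a2, an iron importer, was 23.5 and 38.3 CPM, 1.63-fold [1.32 to 2.02], and Lpcat3, which loads phospholipids with polyunsaturated chains, was 147 and 239 CPM, 1.62-fold [1.49 to 1.76]. Acsl4, which activates such fatty acids, was 36.1 and 24.9 CPM, a ratio of 0.69 [0.56 to 0.84]. In fibroblasts none of 7 was higher and 1 was lower, Acsl4 at 155 and 102 CPM, beside 6.5% and 7.51% of all genes.

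In epithelial cells, none of 5 other glutathione peroxidases and peroxiredoxins, 15 thioredoxin and glutaredoxin genes, 9 genes of NADPH supply or 4 superoxide dismutase and catalase genes passed 1.5-fold either way. Of 17 genes of selenoprotein synthesis or of other selenoproteins, 1 was higher, the selenium carrier Sepp1 at 69.6 and 135 CPM. In the same list 1 was lower, Selm at 27.5 and 15.1. Of all genes, 7.2% were higher and 10.6% lower in OFF epithelial cells, and 6.5% and 7.51% in fibroblasts. In fibroblasts 1 of 15 thioredoxin and glutaredoxin genes was higher, Sesn3 with 19 and 44 UMIs, and 1 of 5 superoxide dismutase and catalase genes was lower, Sod3 with 28 and 17. Of the 17 genes of selenoprotein synthesis or of other selenoproteins, 1 was higher in fibroblasts, Eefsec with 11 and 25 UMIs. In the same list 2 were lower, Sephs2 with 21 and 12 and Sepsecs with 22 and 15. The ratios of Sod3 (0.58 [0.30 to 1.09]), Sephs2 (0.54 [0.24 to 1.15]) and Sepsecs (0.65 [0.31 to 1.31]) had intervals that held 1. These genes were named after their values were seen, and none of the 6 other peroxidase and peroxiredoxin genes or the 9 of NADPH supply passed 1.5-fold in fibroblasts. The peroxiredoxins Prdx2, Prdx3 and Prdx5 had epithelial ratios of 1.03 [0.97 to 1.08], 1.17 [1.06 to 1.30] and 1.04 [0.97 to 1.11].

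**Figure D5:**
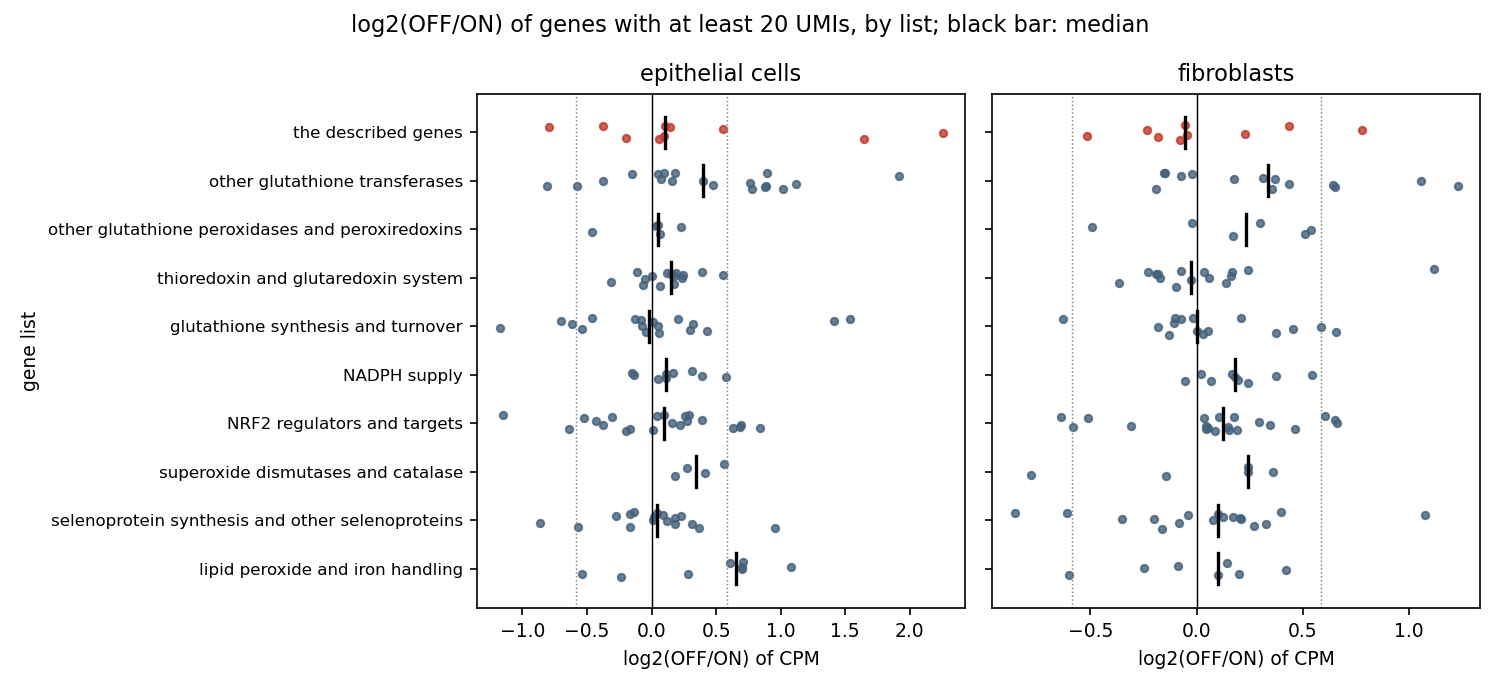
log2(OFF/ON) of every gene with at least 20 UMIs in the described set (red) and in 9 related lists (blue), in epithelial cells and fibroblasts, with list medians as bars and 1.5-fold as dotted lines. The epithelial medians are 0.10 for the described genes and 0.40 for the other glutathione transferases.

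The genes whose levels followed each member most closely were sought over the same 14 groups, among 10030 genes, by Pearson r of log2(CPM + 10). For Gstm1 these were Abcg2 (0.96), Tmed4 (0.95) and Maoa (0.94), and for Gstm3 they were Exoc3l4 (0.98), Dpyd (0.97) and H2-T3 (0.97). For Gpx2 they were Esrp1, Tspan1 and Cd24a (each 0.98), for Gsto1 Rfk, Mia2 and Pparg (0.96 to 0.95), and for Gpx1 Lima1, Mpp1 and Cript (0.95 to 0.94). For Prdx4 they were Ifitm2 (0.97), Pdia4 and Creg1 (0.95 each). The highest r was lower for Gstp1 (Psmb5, 0.93), Prdx6 (Fam162a, 0.90), Prdx1 (Ngef, 0.90) and Gpx4 (Gem, 0.85).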

How the data were processed

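The authors deposited raw counts, whole numbers for every gene in each barcode; they are taken as UMIs since the labels name Drop-seq. STAR 2.6 and mm10 appear in the submitters' processing notes. How reads were counted, with which annotation, and how barcodes were picked is not given in the sources used here. The barcodes that end in N (96 in ON, 152 in OFF) were kept. No per-sample column was left unused.

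Barcodes under 300 genes or over 20% mitochondrial UMIs were dropped. Scrublet (scanpy 1.11.5 under Python 3.11.15 with pandas 2.3.3, scipy 1.17.1 and numpy 2.4.6) removed 6 (ON) and 4 (OFF) doublets. This left 876 and 1560 cells, of which 15 and 1 were tied between the classes. Each class was clustered jointly over both libraries (2000 variable genes without the described genes and the pathway lists, 30 components, 15 neighbours, Leiden in igraph 0.11.9 at resolution 0.5). UMIs were summed per class or cluster and divided by the total, and log2 ratios used 0.5 added to each count. The ratio and interval steps were tested on simulated data.

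The described genes and all lists were chosen with earlier results of these data known. Related genes were named where they had at least 100 UMIs and the 3 largest log2 ratios of their list in a class, and like genes where they had the 3 highest correlations. Alternatives were other filters on cells, barcodes and genes, other classes, folds, weights and cluster resolutions, thinning to 500 UMIs or none, and scaling by median of ratios or by TMM in edgeR 4.0.16 under R 4.3.3. Leaving out the Apoa4 cluster or the richest barcode was added after the data were seen. Positions come from GENCODE vM21. Figures used matplotlib 3.10.9.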

Additional observations from a re-analysis of the deposited data

Results flagged for a closer look

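Gstm1 had a log2(OFF/ON) of 1.65 in epithelial cells and of -0.52 in fibroblasts, opposite directions in the libraries' 2 cell classes. With 1 library per condition this difference was not tested. The epithelial value is 0.87 without the Apoa4 cluster. Thinned to 1000 UMIs, the share of fibroblasts with a Gstm1 UMI was 2.76% in ON and 4.30% in OFF, with overlapping intervals.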

How the results depend on the processing

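Of 182 alternative values for the 12 counts and medians, 161 stayed close to the reported value, 19 moved and 2 changed sign; the cause was not tested beyond what each setting does. For epithelial cells, genes higher in OFF numbered 1 in place of 2 over the 5 clusters with at least 50 cells in both libraries weighted equally (this also leaves out the Apoa4 cluster), 3 with TMM or median-of-ratios factors, at the lower fold tried or without the Apoa4 cluster, where Prdx4 passed too, and genes lower numbered 2 at the lower fold tried and 0 at 2-fold or with a minimum of 100 CPM, in place of 1. The epithelial median of 0.10 was 0.18 without barcodes over 50000 UMIs and 0.15 with TMM factors. For fibroblasts, genes higher numbered 2 at the lower fold, 0 at 2-fold and 2 without a gene filter, in place of 1, and genes lower numbered 1 without a cell filter, with doublets kept, with clear classes only, or at the lower fold, in place of 0. The fibroblast median of -0.05 was 0.13 with equal weight for each cell and 0.09 with a minimum of 100 CPM, which leaves fewer genes. Genes higher in fibroblasts than epithelium numbered 0 (ON) and 1 (OFF) at 2-fold, in place of 2 and 3. Pairs of gene and cluster higher in OFF numbered 3 at 2-fold in place of 8, and pairs lower numbered 8 with equal weight for each cell and 0 at 2-fold or with a minimum of 100 CPM, in place of 5. The epithelial log2 ratio of Gstm1 (1.65) ranged from 0.38 to 1.70 and that of Gstm3 (2.25) from 1.23 to 2.59, both lowest over those 5 clusters, which differ from the whole in weight and in the clusters left out, and Gstm1 passed 1.5-fold in 13 of 14 alternatives. Without the Apoa4 cluster the epithelial Gpx1 value changed sign, from 0.06 to -0.05. Equal weight per cell changed the fibroblast sign of Gstp1 (-0.05 to 0.13) and Prdx1 (-0.08 to 0.13). No paired analysis was possible because each condition has 1 library. Depth limits the per-cell shares: unthinned, 28.2% and 39.5% of epithelial cells held a Gstm1 UMI.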
